A study of Mus musculus with 16 samples.

Results

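Cytokinesis, the step that cuts a dividing cell into daughters, depends on a contractile ring that myosin II pulls closed. The RNA levels of 10 core genes of this machinery were examined in mouse epicardial explants grown with or without blebbistatin, a myosin II inhibitor. The genes are Anln, Ect2, Racgap1, Kif23, Prc1, Kif20a, Aurkb, Cit, Cep55 and Kif4. They were picked by name for their known roles, with earlier results of these data known. All 10 were found among the 15805 genes of the count table and passed the filter on low counts. A total of 16 libraries were compared, 8 from blebbistatin-treated and 8 from untreated explants. In both groups the explants were primary cultures from C57BL6 mice, grown on a gel of collagen and annotated as epicardial cells, the outer cell layer of the heart. The labelled dose is 20, with a unit written once as mM and once as mm, so the concentration is not settled. The sources used here do not give the age of the mice, the number of animals, the length of treatment or any solvent in the controls. Nothing says that explants came from separate animals, so the p-values measure the spread between these samples, which may be partly technical.

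Late in mitosis, microtubules are bundled between the separating chromosomes into the central spindle, which tells the cell cortex where to build the ring by activating the small GTPase RhoA. Myosin II then closes the ring around the central spindle, which is compacted into the midbody, and proteins of the ESCRT machinery cut the remaining bridge. Some genes of these steps are switched on late in the cell cycle, and others are active throughout. In promoters of the first kind the DREAM and MYB-MuvB complexes bind a motif called the cell cycle genes homology region (CHR), and the factor NF-Y binds CCAAT boxes.

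The starts of the genes show how far this promoter layout is shared. RefSeq promoters (build GRCm38.p6, 250 bases before to 50 after the transcription start) were matched for 8 of the 10 genes, and those of Kif20a and Aurkb were not used here. For each of the 8, the 50 bases before and the 50 after the start are printed 5′ to 3′ on the gene's strand. Capitals mark the CHR motif, searched as TTTGAA or TTCGAA, and the CCAAT box, each on both strands, so that TTCAAA and ATTGG are the same motifs reversed. No printed matches overlap.
Racgap1, chr15:99651607-99651706, minus strand: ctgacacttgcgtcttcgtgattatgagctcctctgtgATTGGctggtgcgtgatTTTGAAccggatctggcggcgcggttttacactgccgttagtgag
Kif23, chr9:61946750-61946849, minus strand: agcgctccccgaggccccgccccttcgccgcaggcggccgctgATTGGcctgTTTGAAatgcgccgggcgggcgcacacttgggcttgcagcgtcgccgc
Prc1, chr7:80294401-80294500, plus strand: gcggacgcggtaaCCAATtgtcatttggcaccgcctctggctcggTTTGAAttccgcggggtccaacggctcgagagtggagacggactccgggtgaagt
Kif4, chrX:100626015-100626114, plus strand: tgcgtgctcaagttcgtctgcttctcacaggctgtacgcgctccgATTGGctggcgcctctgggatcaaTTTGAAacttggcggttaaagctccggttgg
Ect2, chr3:27153829-27153928, minus strand: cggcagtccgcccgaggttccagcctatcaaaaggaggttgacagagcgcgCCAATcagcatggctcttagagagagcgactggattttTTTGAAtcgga
Anln, chr9:22389157-22389256, minus strand: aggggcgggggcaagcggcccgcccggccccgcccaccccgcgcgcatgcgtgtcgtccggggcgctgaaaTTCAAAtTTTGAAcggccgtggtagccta
Cep55, chr19:38054934-38055033, plus strand: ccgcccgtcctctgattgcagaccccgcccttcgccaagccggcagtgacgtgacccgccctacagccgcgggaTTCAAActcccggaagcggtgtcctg
Cit, chr5:115845606-115845705, plus strand: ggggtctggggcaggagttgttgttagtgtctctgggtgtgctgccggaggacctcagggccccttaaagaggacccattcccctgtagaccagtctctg

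A CHR motif began within 50 bases of the start in 7 of the 8 promoters, against 3.44% of 10664 promoters of count-table genes. Over the full 300 bases it was in 7 of 8, against 13.8% of the same promoters and 19.2% of all 32851 RefSeq promoters. Kif23 and Racgap1, which encode the subunits of one complex, both had a CCAAT box just before the start and a CHR motif just after it. Prc1 and Kif4, whose proteins act as partners on microtubules, had both motifs as well. A CCAAT box was in 5 of 8, against 38.5% of promoters of genes in the count table. In a list of 25 promoters of mitosis genes, which holds none of the 10, 16 had the CHR motif, and in one of 19 promoters of S phase genes 3 had it. Of 31 promoters of other cytokinesis genes 8 had the motif, 3 of them within 50 bases of the start. Cit had neither motif, but its RefSeq start lies 378 bases from the start of the GENCODE gene model, and that of Kif4 328 bases away. A match is a description of the letters and does not show that a factor binds there.

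**Figure D1:**
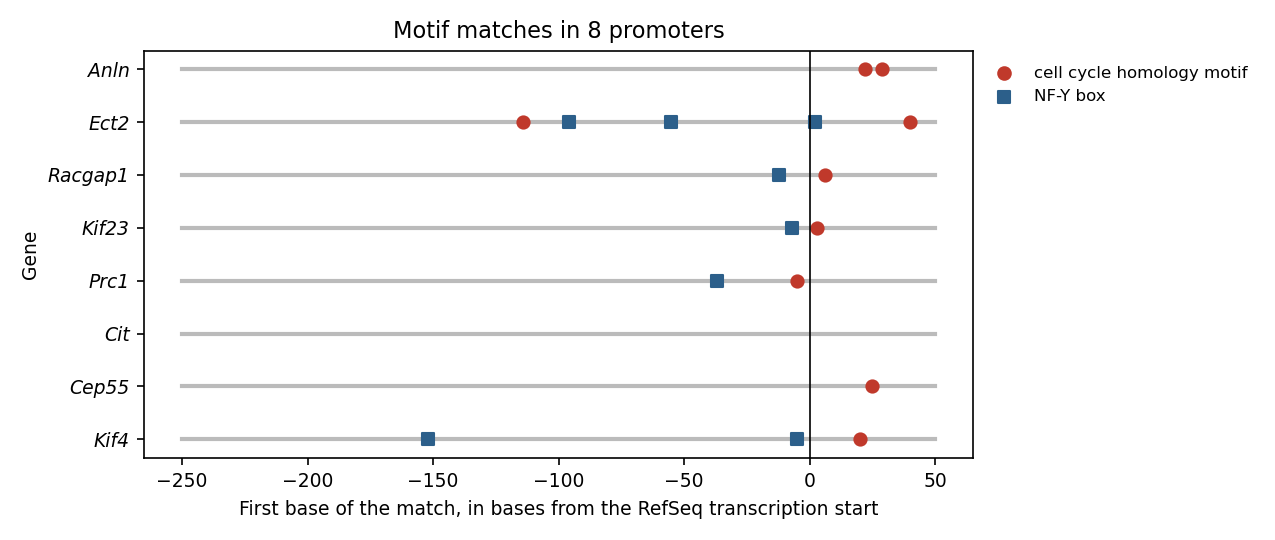
Positions of motif matches in the promoters of 8 genes, in bases from the RefSeq transcription start (black line). Circles are matches of the cell cycle homology motif and squares are CCAAT (NF-Y) boxes, placed at their first base. The circles lie near the start in 7 of 8 genes, with 1 further match 114 bases before the start of Ect2, and Cit has neither.

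Total counts per library ran from 20176386 to 89620195 with blebbistatin and from 27065611 to 60321622 in controls. The 10 genes were covered by 55 to 7556 reads per library. Markers of the epicardium, all 12 of which were in the table, summed to 1641 to 4858 CPM (counts scaled to a fixed library total) with blebbistatin and 2555 to 6209 CPM in controls. Markers of macrophages and leukocytes, all 13 of 13, varied widely in both groups, from 271 to 3979 and from 321 to 4719 CPM. Of 8 cardiomyocyte markers 4 were in the table, where Tnnt2 held nearly all of 526 to 1091 CPM with blebbistatin and 302 to 918 CPM in controls, and Myh6 and Actc1 were at 0 in at least 1 library. Endothelial markers, 4 of 7, summed to at most 63.8 CPM. Fibroblast markers, all 8 of 8, summed to 4023 to 12143 and 7732 to 11702 CPM. Markers of smooth muscle and pericytes, 4 of 5, summed to 333 to 779 CPM with blebbistatin and 968 to 1725 CPM in controls. The share of counts in mitochondrial genes was 16.8 to 25.5% with blebbistatin and 13.8 to 18.9% in controls. Most of it lay in mitochondrial ribosomal RNA genes, at 15.0 to 22.6% and 12.6 to 17.3% of counts. No library repeated another of its group, and pairs across the groups were not checked for this.

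The comparison asked whether explants with inhibited myosin II held other levels of cytokinesis RNA. None of the 10 genes passed the test. The estimated differences were above 0 for Aurkb, Kif23, Kif4, Racgap1, Cit, Ect2 and Kif20a and below 0 for Anln, Cep55 and Prc1, and for all 10 the groups overlapped, as they did for all but 0.242% of the genes tested. By edgeR's quasi-likelihood test, with Benjamini-Hochberg adjustment over 15675 genes and a threshold of 0.05, 0 of 10 passed, against 0.606% of all genes tested. DESeq2 also called 0, against 2.79% of the 14763 genes to which it gave an adjusted p (1.26% higher), and limma voom 0, against 0.721% of all genes. At an unadjusted p under 0.05 there were 4, Aurkb, Kif4, Racgap1 and Kif23, all higher, against 12.2% of all genes in either direction and 6.21% higher. A positive log2 fold change (blebbistatin minus control) was found for 7 of 10, against 54.1% of all genes, and the median was 0.24, against 0.04 over all genes. As single libraries were left out, this median ran from 0.15 without blebbistatin 5 to 0.33 without blebbistatin 7. It was 0.11 without blebbistatin 1 and 8 together. It was −0.12 with the mitochondrial share and −0.16 with the mean of a mitosis list as a covariate. The median over all genes was 0.02 in both of these fits. In bulk RNA such as this, a change in the share of dividing cells and one in RNA per dividing cell cannot be told apart.

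The count of 4 depended on which libraries were kept, being 1 without blebbistatin 5 and 2 without blebbistatin 1, 3 or 6 or control 2, 3, 4 or 8. It was 1 without blebbistatin 1 and 8 together, the libraries with the fewest genes detected, and 0 with the level of Y-linked genes or the mitochondrial share as a covariate. Both covariates were uneven between the groups, as given further on. Calls over all genes at an adjusted p under 0.05 also fell, from 95 to 22 with the Y-linked level and to 1 with the mitochondrial share. No share of all genes at an unadjusted p under 0.05 was taken in these covariate and leave-out fits.

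**Figure D2:**
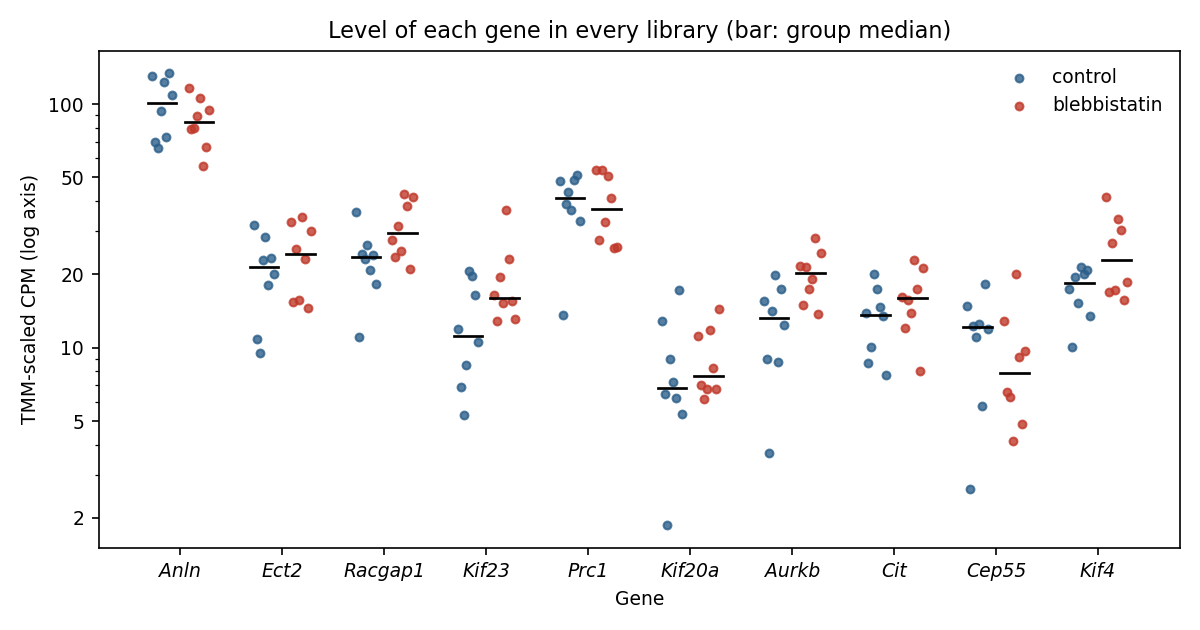
TMM-scaled CPM of the 10 genes on a log axis, with a point for each of 8 control (blue) and 8 blebbistatin (red) libraries and a bar at each group's median. The groups overlap for all 10 genes, and the lowest point is a control library for all of them but Anln.

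The levels that follow are CPM after TMM scaling, edgeR's correction for differences in composition between libraries. They are given as the lowest, median and highest of 8 libraries. Anln encodes anillin, the scaffold that ties actin, RhoA, septins and myosin II together in the ring (ENSMUSG00000036777, chromosome 9, 22332012 to 22389188). It stood at 55.6, 84.4 and 116 CPM with blebbistatin and at 66.1, 101 and 134 CPM in controls. Blebbistatin 6 lay below every control, and 2 of 8 treated libraries lay above the control median. The log2 fold change was −0.22 (SE 0.18, 95% interval −0.59 to 0.15, edgeR adjusted p = 0.672), and this interval excludes a doubling.

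Ect2 encodes the exchange factor that loads RhoA with GTP at the cell equator (ENSMUSG00000027699, chromosome 3, 27097222 to 27153878). It stood at 14.6, 24.2 and 34.5 CPM with blebbistatin and 9.47, 21.5 and 31.8 CPM in controls. Controls 2 and 3 lay below all treated libraries, and blebbistatin 1 and 5 above all controls. Its log2 fold change was 0.22 (SE 0.26, edgeR adjusted p = 0.784), and ran from 0.11 without control 3 to 0.33 without control 1 as single libraries were left out. Rhoa itself, the GTPase that Ect2 activates, was at 305 ± 54.5 CPM in treated and 301 ± 27.3 CPM in control explants (SD, n = 8), with a log2 fold change of 0.02 (edgeR adjusted p = 0.961).

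Racgap1 and Kif23 encode the GTPase-activating subunit and the kinesin of centralspindlin, the complex that holds the central spindle together and recruits Ect2. Racgap1 (ENSMUSG00000023015, chromosome 15, 99620496 to 99651656) stood at 21.1, 29.6 and 42.7 CPM with blebbistatin and 11.1, 23.5 and 35.9 CPM in controls. A total of 7 of 8 treated libraries lay above the control median, a pattern that 12% of all genes reach or pass, and control 1 lay among the highest treated libraries. The log2 fold change was 0.45 (SE 0.21, 95% interval 0.02 to 0.89, edgeR adjusted p = 0.387). Kif23 (ENSMUSG00000032254, chromosome 9, 61915905 to 61946774) stood at 12.8, 15.96 and 36.8 CPM with blebbistatin and 5.30, 11.2 and 20.6 CPM in controls. No treated library was below the control median and 5 of 8 controls were below the lowest treated library, while blebbistatin 5 stood far above the rest. The log2 fold change of 0.61 (SE 0.29, edgeR adjusted p = 0.407) was 0.40 without blebbistatin 5 (edgeR adjusted p = 0.588). Within a library the log2 ratio of Kif23 to Racgap1 was −0.76 ± 0.42 with blebbistatin and −0.96 ± 0.71 in controls (SD, n = 8), a difference smaller than the spread between explants.

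Prc1 encodes the protein that crosslinks antiparallel microtubules (ENSMUSG00000038943, chromosome 7, 80294450 to 80316259). Its level was 25.7, 36.9 and 53.8 CPM with blebbistatin and 13.6, 41.3 and 51.2 CPM in controls. Control 2 was far below every other library, and without it 4 of 8 treated libraries, blebbistatin 2, 4, 7 and 8, lay below the lowest control. The log2 fold change was −0.01 (SE 0.23, 95% interval −0.50 to 0.47, edgeR adjusted p = 0.987), the smallest of the 10. It crossed 0 as single libraries were left out, from −0.14 without control 2 to 0.0533 without blebbistatin 7, and both groups were at nearly the same mean, 38.8 ± 12.5 and 39.3 ± 12.1 CPM (SD, n = 8).

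Kif4 encodes the kinesin that Prc1 recruits to the microtubule overlap, where the kinesin limits the length of the overlap. This X-linked gene (ENSMUSG00000034311, 100625737 to 100727214) stood at 15.7, 22.8 and 41.5 CPM with blebbistatin and 10.1, 18.4 and 21.4 CPM in controls. Blebbistatin 1, 3, 5 and 6 lay above every control, and the other 4 within the control range. Its log2 fold change was 0.55 (SE 0.22, 95% interval 0.08 to 1.01, edgeR adjusted p = 0.308). With the Y-linked level as a covariate it was 0.46 (edgeR adjusted p = 0.627).

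Kif20a encodes the kinesin that moves the chromosomal passenger complex from the chromosomes to the central spindle (ENSMUSG00000003779, chromosome 18, 34624613 to 34633277). It was the gene of lowest CPM in both groups by median, at 6.17, 7.62 and 14.5 CPM with blebbistatin and 1.87, 6.84 and 17.2 CPM in controls. The controls enclosed the whole treated range, and the highest was 9.22 times the lowest. The log2 fold change was 0.13 (SE 0.34, edgeR adjusted p = 0.904), with an interval of −0.57 to 0.83. Its sign turned without control 3 (−0.0211) or blebbistatin 8 (−0.001).

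Aurkb encodes Aurora B, the kinase of that complex, which times the ring and the final cut (ENSMUSG00000020897, chromosome 11, 69045647 to 69051664). Its level was 13.7, 20.2 and 28.1 CPM with blebbistatin and 3.70, 13.3 and 19.9 CPM in controls. Each of the 8 treated libraries exceeded the control median, 4 of them exceeded every control, and control 3 was far below the rest. Of the 10 genes it had the largest difference and the smallest p, a log2 fold change of 0.67 (SE 0.26, 95% interval 0.12 to 1.22, unadjusted p = 0.02 and adjusted p = 0.287 in edgeR). Without control 3 the log2 fold change was 0.53 (edgeR adjusted p = 0.325). The unadjusted p was under 0.05 in 25 of 29 alternative analyses, and the adjusted p in none.

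Cit and Cep55 act last. Cit encodes citron kinase, which organises the midbody (ENSMUSG00000029516, chromosome 5, 115845278 to 116008947), and stood at 8.03, 15.95 and 23.0 CPM with blebbistatin and 7.71, 13.7 and 20.1 CPM in controls. The groups overlapped almost fully, with a log2 fold change of 0.27 (SE 0.23, edgeR adjusted p = 0.698). It ran from 0.17 without blebbistatin 5 to 0.37 without control 4 as single libraries were left out. Cep55 encodes the midbody protein that brings in the ESCRT machinery (ENSMUSG00000024989, chromosome 19, 38055011 to 38074423), and stood at 4.16, 7.85 and 20.1 CPM with blebbistatin and 2.63, 12.1 and 18.2 CPM in controls. Only 2 of 8 treated libraries lay above the control median, but these included blebbistatin 5, the highest of all 16. Its log2 fold change of −0.28 (SE 0.36, edgeR adjusted p = 0.803) was −0.54 without blebbistatin 5 and −0.14 without control 7, with the adjusted p at 0.558 and 0.922.

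**Figure D3:**
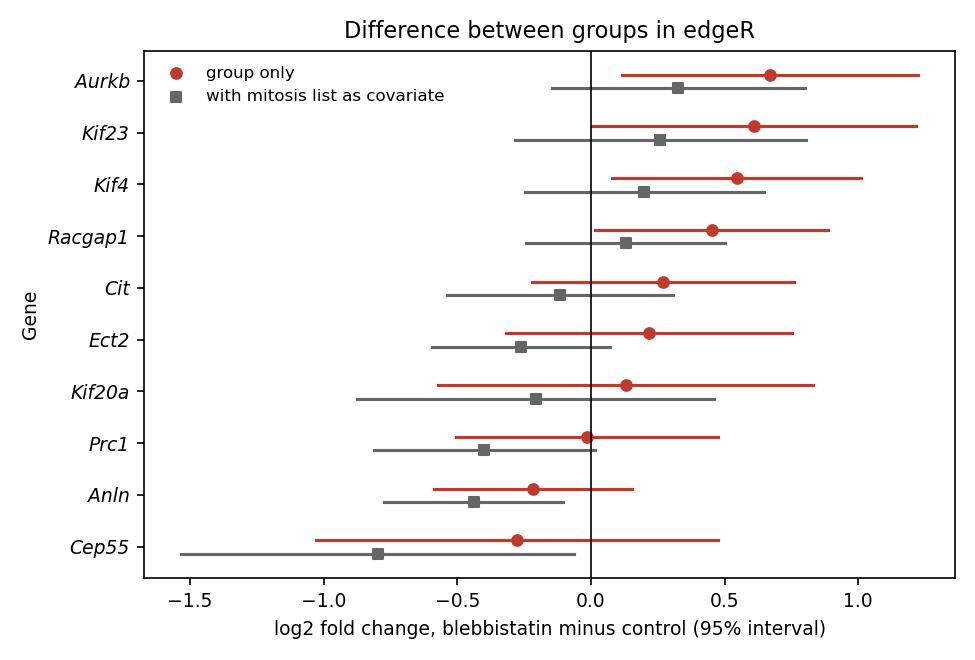
Log2 fold change of each gene, blebbistatin minus control, in edgeR, with 95% intervals not adjusted for the number of genes. Red circles are the fit with group alone and grey squares the fit with the mean of the mitosis list as a covariate. In the second fit the fold changes of all 10 genes lie further to the left, from 0.33 for Aurkb to −0.80 for Cep55. They are relative to that list, whose mean was itself higher with blebbistatin.

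The intervals set what these data can show. For 6 of 10 genes the 95% interval lay wholly within a 2-fold change in either direction, and for Kif23, Aurkb, Kif4 and Cep55 it did not. No interval adjusted for the number of genes was made.

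Some members overlap genes on the other strand, and no strand setting of the counting is stated, so their reads may be mixed. Exons of Kif20a overlap those of Cdc23, exons of Kif4 those of Pdzd11 and exons of Prc1 those of Rccd1. Cdc23 was at 50.9 ± 5.66 CPM in treated and 48.7 ± 6.02 CPM in control explants, Pdzd11 at 46.2 ± 15.0 and 44.9 ± 14.3 CPM, and Rccd1 at 3.76 ± 2.64 and 3.42 ± 3.35 CPM (SD, n = 8).

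Between genes, levels were compared as CPM per kilobase of annotated exon, which counts every exon of every isoform and so understates genes with many. Anln was highest at 11.0 ± 3.10 in controls and 9.48 ± 2.202 with blebbistatin (SD, n = 8), above Prc1 in all 16 libraries. Cit was lowest, at 0.81 ± 0.26 and 0.97 ± 0.29. Between them, Prc1 (4.77 ± 1.47), Aurkb (4.28 ± 1.79), Cep55 (3.84 ± 1.70), Ect2 (3.83 ± 1.45), Racgap1 (3.25 ± 1.00) and Kif4 (3.13 ± 0.73) followed in controls, and then Kif20a (1.91 ± 1.10) and Kif23 (1.58 ± 0.73). Of neighbours in this order, only Anln against Prc1 and Kif23 against Cit differed by a mean log2 ratio larger than its SD over the 8 controls. With blebbistatin the per-length level of Aurkb was 6.82 ± 1.63, above Prc1 (4.72 ± 1.51) in all 8 libraries, whereas in controls Prc1 was the higher of these in 5 of 8. The groups still overlapped, as the log2 ratio of Prc1 to Aurkb in CPM ran from 0.08 to 1.40 with blebbistatin and 0.60 to 3.40 in controls. No test was made of this pair.

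Explants differed from each other in the whole set of genes. The mean log2 CPM of the 10 genes ran from 3.34 in control 2 to 4.65 in control 7, and from 3.88 in blebbistatin 7 to 4.99 in blebbistatin 5. Blebbistatin 5 was the highest treated library for 5 of 10 genes and blebbistatin 7 the lowest for 6. Among controls, control 7 was highest for 4 genes, control 2 lowest for 4 and control 3 lowest for 5. Control 3 was uneven across genes: it was lowest for Kif20a and Aurkb by a wide margin, yet stood at 12.3 CPM for Cep55, close to the control median.

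**Figure D4:**
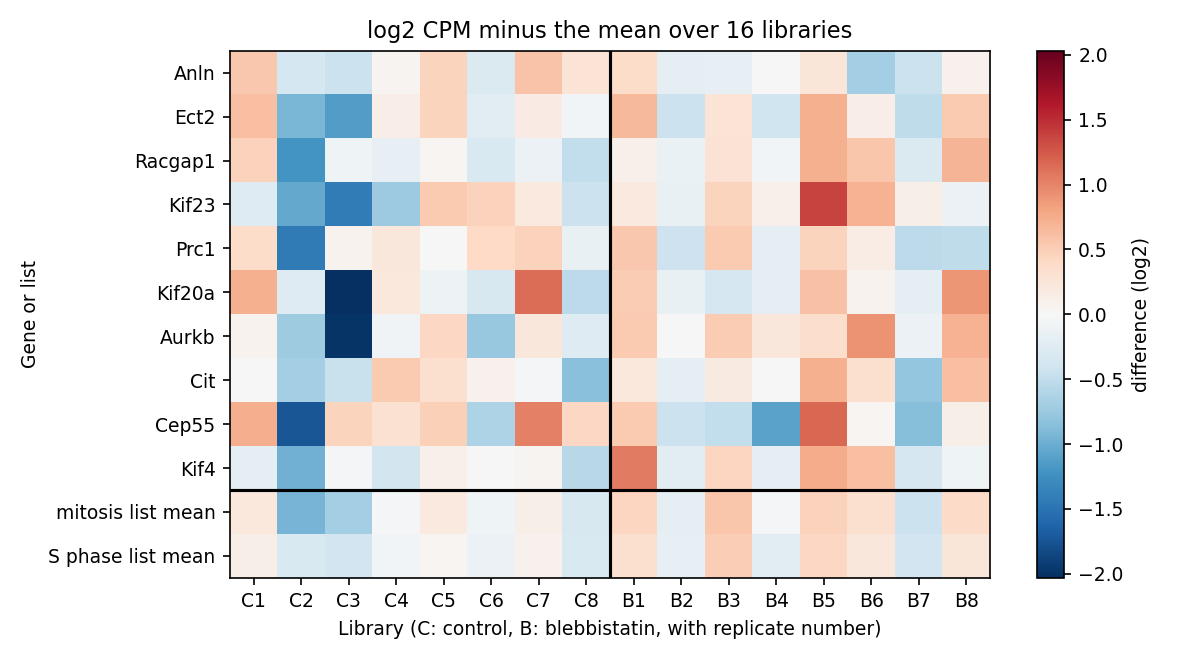
Log2 CPM of the 10 genes, and the means of the mitosis and S phase lists, in each library minus the row's mean over 16 libraries (red higher, blue lower). Columns C1 to C8 are controls and B1 to B8 blebbistatin. Control 2 is blue for all 10 genes, control 3 is darkest for Kif20a and Aurkb, and B5 is red for all 10 genes.

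Once the group means were removed, each gene's log2 CPM had a mean Pearson r with the other 9 of between 0.47 (Kif20a) and 0.69 (Ect2) over 16 libraries. By Spearman's rho the means ran from 0.49 (Prc1 and Kif23) to 0.68 (Ect2). The closest pair was Prc1 and Kif4 (r = 0.83), and Kif20a and Kif4 were least alike (r = 0.17). Ect2 was closest to Aurkb (r = 0.80), and Racgap1 to Cep55 (r = 0.78). Among 10598 other genes with a mean of at least 5 CPM, the 6 with the highest mean r to the 10 were Tpx2 (0.71), a spindle assembly factor, Ccnb1 (0.69), which encodes cyclin B1, Kif11 (0.69), a motor of spindle poles, Ckap2l (0.67), Nusap1 (0.67), a microtubule-binding protein of the spindle, and Dbf4 (0.67), the activator of a replication kinase. Their mean rho ran from 0.58 for Ckap2l to 0.74 for Tpx2. These values describe libraries that share depth and scaling, and no p is given, since the genes were picked for the highest values.

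The proportions among the 10 genes were compared pair by pair, as the log2 ratio of their CPM within a library, which does not depend on the scaling. In 1 of 45 pairs the groups did not overlap, against 0.18% of all ratios of a member to another tested gene. The pair was Anln and Aurkb: the log2 ratio of Anln to Aurkb was 2.097 ± 0.50 with blebbistatin, from 0.99 to 2.48, and 3.08 ± 0.47 in controls, from 2.62 to 4.16 (SD, n = 8). This pair joins the gene of largest positive difference to one of negative difference and was singled out after the values were seen, so no test is given.

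To see whether the 10 genes followed other genes of division, 29 genes of mitosis were set beside them, none of them a member. By edgeR 0 of 29 passed, with 26 of 29 positive, a median log2 fold change of 0.41 and 8 at an unadjusted p under 0.05, all higher. Over all genes 54.1% were positive, with a median of 0.04, and 6.21% were higher at that unadjusted threshold. Those of smallest p were the proliferation marker Mki67 (log2 fold change 0.61, edgeR adjusted p = 0.159), the checkpoint kinase Bub1b (0.56, edgeR adjusted p = 0.171), the mitotic kinase Cdk1 (0.51, edgeR adjusted p = 0.251) and the cyclin Ccna2 (0.60, edgeR adjusted p = 0.276). Averaged over the mitosis list, log2 CPM ran from 3.83 to 4.83 with blebbistatin and from 3.32 to 4.48 in controls, lowest, as for the 10 genes, in blebbistatin 7 and control 2. The mean of the 10 genes minus that of the list was −0.04 ± 0.18 with blebbistatin and 0.06 ± 0.10 in controls (SD, n = 8), which overlapped.

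With the mean of the mitosis list as a covariate in edgeR, 0 of 10 genes passed, against 0.23% of all genes. In this fit 4 of 10 log2 fold changes were positive. The share of positive ones over all genes was not taken, and their median was 0.02. Anln then had a log2 fold change of −0.44 (SE 0.16, unadjusted p = 0.0133, adjusted p = 0.337 in edgeR) and Cep55 of −0.80 (SE 0.35, unadjusted p = 0.0346, adjusted p = 0.458). They were the 2 members at an unadjusted p under 0.05, both lower, against 5.5% of all genes lower, 4.24% higher and 9.74% in either direction. Aurkb had one of 0.33, Kif23 of 0.26, Kif4 of 0.20 and Racgap1 of 0.13, none with an unadjusted p under 0.05.

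**Figure D5:**
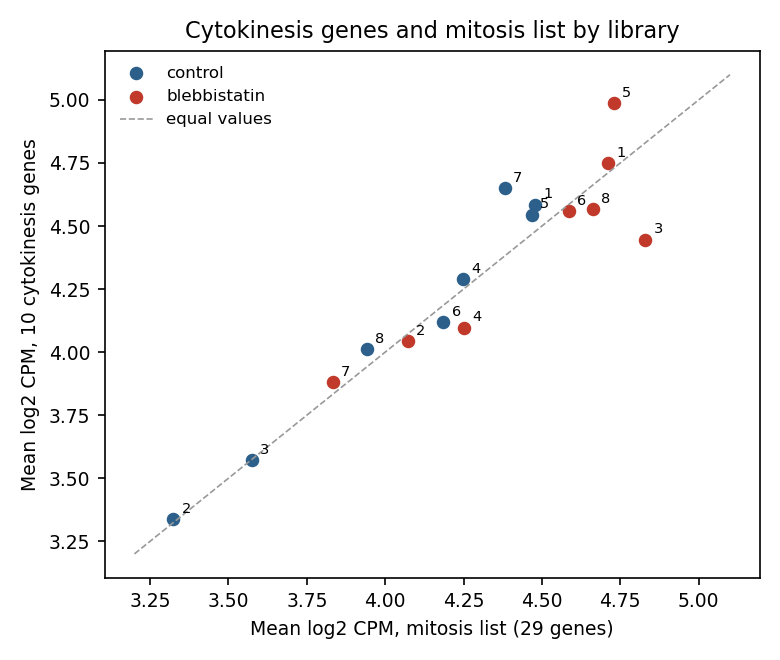
Mean log2 CPM of the 10 cytokinesis genes against that of 29 mitosis genes, with a point for each library, numbered by replicate. Controls (blue) and blebbistatin libraries (red) lie along the dashed line of equal values, with blebbistatin 5 and control 7 above it and blebbistatin 3 below it.

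Other genes of cytokinesis, 41 in all, were grouped by role, and no test compared the roles. Over all genes, 0.606% passed edgeR and 54.1% were positive. At an unadjusted p under 0.05, 6.21% of all genes were higher and 5.98% lower. Of 8 further genes of the central spindle, 0 passed edgeR, 6 were positive and the median log2 fold change was 0.28. At an unadjusted p under 0.05 there was 1, higher. Cdca8, the borealin subunit of the chromosomal passenger complex, had a log2 fold change of 0.76 (SE 0.22, edgeR adjusted p = 0.124). Its adjusted p was 0.0389 in DESeq2, which called 412 genes against 95 in edgeR, and it passed in no other alternative. Clasp1, which stabilises microtubule ends, had one of 0.27 (edgeR adjusted p = 0.42), the kinesin Kif14 of 0.55 (edgeR adjusted p = 0.478) and Birc5, the survivin subunit, of 0.37 (edgeR adjusted p = 0.668).

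Of 17 further genes of the ring, 0 passed edgeR, 4 were positive, against 54.1% of all genes, and the median was −0.14. The 4 at an unadjusted p under 0.05 were all lower, against 5.98% of all genes. The myosin IIA heavy chain gene Myh9 was at 390 ± 112 CPM in treated and 571 ± 80.5 CPM in control explants (−0.55, SE 0.15, edgeR adjusted p = 0.101), and passed in DESeq2 (adjusted p = 0.0249), with the macrophage covariate (0.045) and without blebbistatin 5 (0.0266). Myl12a, a light chain of myosin II, had a log2 fold change of −0.39 (edgeR adjusted p = 0.215), the septin gene Sept6 one of −0.83 (edgeR adjusted p = 0.286) and Diaph1, which nucleates actin filaments under RhoA, one of −0.35 (edgeR adjusted p = 0.314). The myosin IIB heavy chain gene Myh10 was at 800 ± 129 and 919 ± 119 CPM (−0.20, edgeR adjusted p = 0.516).

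Of 16 genes of abscission (Chmp1b was not analysed here), 0 passed edgeR, 6 were positive, against 54.1% of all genes, and the median was −0.09. At an unadjusted p under 0.05 there were 2, both lower, against 5.98% of all genes. Chmp4c, an ESCRT-III subunit of the abscission checkpoint, had a log2 fold change of −0.53 (edgeR adjusted p = 0.294), its relative Chmp2b one of −0.30 (edgeR adjusted p = 0.393), Chmp6 one of 0.71 (edgeR adjusted p = 0.454) and Pdcd6ip, for the ESCRT adaptor ALIX that Cep55 binds, one of −0.16 (edgeR adjusted p = 0.493).

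Of 24 S phase genes 0 passed edgeR, 20 were positive, against 54.1% of all genes, and the median was 0.18. At an unadjusted p under 0.05, 2 were higher, against 6.21% of all genes, and 1 was lower, against 5.98%. Tk1, for thymidine kinase, had a log2 fold change of 0.68 (edgeR adjusted p = 0.199), the replication factor gene Gins1 one of 0.80 (edgeR adjusted p = 0.352), Rrm1, for a ribonucleotide reductase subunit, one of −0.34 (edgeR adjusted p = 0.36) and Slbp, for the binder of histone mRNA, one of 0.37 (edgeR adjusted p = 0.414). Cdkn1a, the inhibitor of cyclin-dependent kinases, stood at 322 ± 162 CPM in treated and 390 ± 114 CPM in control explants (SD, n = 8), a log2 fold change of −0.28 (edgeR adjusted p = 0.736).

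Beside these levels, the mitochondrial share differed between the groups (2-sided exact permutation test over 12870 splits, p = 0.00326). So did the summed cardiomyocyte markers, nearly all Tnnt2 (exact p = 0.0109), and smooth muscle markers, mostly Acta2 and Tagln (exact p = 0.000155). The macrophage sum did not pass (exact p = 0.852), and with it as a covariate in edgeR the log2 fold changes of Aurkb, Kif4, Kif23 and Racgap1 were 0.70, 0.55, 0.61 and 0.45. With the mitochondrial share as a covariate they were 0.40, 0.34, 0.48 and 0.10, each with an unadjusted p over 0.05. With the Y-linked level, above that of other libraries in 5 treated and 2 control explants, they were 0.50, 0.46, 0.64 and 0.40. The part of the cardiomyocyte and smooth muscle markers in the members' levels was not tested.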

How the data were processed

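All values start from the raw counts of reads that the authors deposited for 16 libraries. The submitters' processing notes name HTSeq 0.6.1p1, SAMtools 1.3, edgeR, Bowtie2 2.2.6.0 and TopHat2 2.1.0, and the build mm10 (GRCm38). The sources used here do not say what each tool did, which annotation was used or whether strand was counted. Each gene of the deposited table exceeded 1 CPM in at least 4 libraries, so genes below that were not analysed here. Identifiers were matched to GENCODE M21 (GRCm38) for symbols, positions and exon lengths, of which 15665 of 15805 matched.

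Counts were filtered with filterByExpr (130 genes removed), scaled by TMM and tested with edgeR 4.0.16 (R 4.3.3, robust quasi-likelihood fit, group as the only term, Benjamini-Hochberg adjustment over 15675 genes). Log2 CPM used a prior count of 2. DESeq2 1.42.0, limma 3.58.1 (voom), other scalings and filters, covariates, the replicate number as a block and the removal of each library were alternatives, and the scripts were tested on simulated data. Total counts of 20176386 to 89620195 put at least 55 reads behind each member in each library.

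The 10 members and all gene lists were chosen with earlier results of these data known. The genes named were all members, 5 genes whatever their result (Rhoa, Myh9, Myh10, Mki67 and Cdkn1a), the 4 of smallest p of each list, and the 6 most like the members among genes of at least 5 CPM. Genes outside this rule are named only as overlapping partners or markers. The red blood cell marker list, 4 genes, had no member in the table and was not analysed here.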

Additional observations from a re-analysis of the deposited data

Results flagged for a closer look

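Dixon's criterion on unlogged CPM sought a library set apart from the other 7 of its group, by a gap large against the range. Such a library was found in 4 of 66 groups of values examined, near the 1 in 20 that chance gives for normally distributed values. Whether the CPM are so distributed was not tested. Kif23 stood at 36.8 CPM in blebbistatin 5, where the next treated library had 23.1 CPM. Kif14 was at 23.3 CPM and Chmp6 at 34.3 CPM in blebbistatin 8, where the next values were 14.2 and 10.6 CPM. Birc5 was at 28.1 CPM in control 1, and the next control had 13.6 CPM.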

How the results depend on the processing

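No member passed the threshold in any of 29 alternatives, nor did any gene of the mitosis or S phase lists, and Anln, Racgap1, Kif23, Aurkb, Cep55 and Kif4 kept their direction in all of them. The number of genes called over all genes, 95 in edgeR, was 412 with DESeq2, 170 among genes of at least 5 CPM in 8 libraries, 177 with the replicate block, 267 with the macrophage covariate, 22 with the Y-linked covariate, 1 with the mitochondrial share and 36 with the mitosis covariate, and ran from 44 to 206 as each library was left out. Of the other cytokinesis genes DESeq2 called 2, the macrophage covariate 1, and leaving out each library gave 0 to 1. Members with a positive log2 fold change were 4 with the mitochondrial share and 4 with the mitosis covariate. The share of all genes with a positive one was not taken in these fits, where the median over all genes was 0.02. Members at an unadjusted p under 0.05, an outcome added after the data were seen, were 0 with the Y-linked covariate, 0 with the mitochondrial share, 2 with the mitosis covariate, 1 without the libraries of fewest detected genes, and 1 to 4 as each library was left out. Of these settings, the share of all genes at that threshold was taken only for the mitosis covariate.

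Directions turned for Ect2, Cit, Kif20a and Prc1. The log2 fold change of Ect2 was −0.18 with the mitochondrial share and −0.26 with the mitosis covariate, Cit −0.11 and −0.12, and Kif20a −0.42 and −0.21. Kif20a was also −0.0934 without the libraries of fewest detected genes and from −0.0211 to 0.37 as each library was left out (−0.001 without blebbistatin 8). Prc1 was 0.0393 with limma voom, 0.00133 at 5 CPM, 0.0101 with the replicate block, 0.00993 as a difference of mean log2 CPM, and from −0.14 to 0.0533 as each library was left out. The cause was not tested.

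Replicate numbers shared between the groups were not treated as pairs, since the labels do not say that they mark one and only 4 of 8 same-numbered pairs had a correlation of deviations over 0.1. All 8 were positive, from 0.004 to 0.28, and 2 of 8 correlated best with their own number, so whether the numbers pair the samples is not settled. The replicate block moved the calls over all genes to 177 and changed no call among the members, where Kif23 had an adjusted p of 0.18.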
